A study of Mus musculus with 8 samples.

Results

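The genes described here are the bone morphogenetic protein (BMP) ligand genes *Bmp10*, *Bmp2*, *Bmp4*, *Bmp5*, *Bmp6* and *Bmp7*, together with *Id1*, *Id2*, *Id3* and *Smad6*, whose transcription BMP signaling raises, measured in the developing mouse ventricle. The 10 genes were chosen by symbol from the 53465 genes of the expression table, and all 10 were among the 14451 genes that passed the filter on low counts. RNA-seq of polyadenylated RNA was performed on heart ventricles at embryonic day (E) 9.5, with 4 wild-type (WT) samples and 4 samples of genotype Nrg-1flox;Tie2-Cre, named mutant from here on. In the mutant the Tie2-Cre driver deletes *Nrg1*, the gene for the endocardial ligand neuregulin 1, in endothelial cells, which include the endocardium. The promoter of Tie2 is also known to be active in blood precursors, and myocardium is not a target of the driver. The labels do not say whether WT samples carried Cre or the floxed allele, nor how many embryos made up a sample, so the p-values below measure the spread between these samples only. The comparison asks whether *Bmp10*, which is transcribed in trabecular myocardium, moved apart from the other ligands when *Nrg1* was deleted, and whether the response genes followed.

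BMP ligands are secreted dimers that bind pairs of type I and type II receptors on the cell surface. The receptors phosphorylate SMAD1, SMAD5 and SMAD9, which join SMAD4 and enter the nucleus. Id genes are among the most direct targets and encode helix-loop-helix proteins without a DNA-binding region, which hold other transcription factors inactive, and *Smad6* encodes an inhibitory SMAD that dampens the pathway that induced it. In the embryonic heart, *Bmp10* is needed for growth of the trabecular myocardium, *Bmp2* acts in the atrioventricular canal, *Bmp4* in the outflow tract, *Bmp6* is endocardial, and *Bmp5* and *Bmp7* are transcribed more widely in myocardium.

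Total counts ranged from 11852422 to 14360367 in WT and from 12430417 to 14223920 in the mutant. *Nrg1* itself lay between 4.27 and 5.93 CPM (TMM-normalized counts per 1000000) in the mutant and between 9.38 and 11.9 CPM in WT, so the deleted gene was lower in all 4 mutant samples (log2 fold change -1.07, standard error 0.14, adjusted p = 0.00268 by edgeR's quasi-likelihood test). Mutant replicate 1 stood apart from its group. Its chi-square over degrees of freedom against each other mutant sample was at least 30.3, whereas other mutant pairs reached at most 14.4 and WT pairs at most 6.14. Hemoglobin genes took 6.26% of its counts, from 1.93% to 3.89% in the other mutant samples and at most 0.799% in WT. The members' fits are therefore given with and without this sample. Of the cell type marker lists, the cardiomyocyte list summed to 39245 to 41237 CPM in WT and 36511 to 40412 CPM in the mutant, and 0 of its 12 genes passed the threshold in edgeR (2 at an unadjusted p under 0.05, 2 passing with DESeq2 and 0 with limma-voom). Without mutant replicate 1, *Actc1* was higher (log2 fold change 0.16, adjusted p = 0.00893) and *Ttn* lower (-0.23, adjusted p = 0.0474 by edgeR). The erythroid list summed to 6069 to 7322 CPM in WT and 17535 to 62184 CPM in the mutant, with 10 of 10 genes higher and mutant replicate 1 at the top. The epicardial list was higher in the mutant for 2 of its 6 genes, *Wt1* (log2 fold change 0.57) and *Tbx18* (0.50), joined by *Tcf21* (0.76) without mutant replicate 1 and down to 1 gene without any single WT replicate, and summed to 128 to 195 CPM in WT and 198 to 331 CPM in the mutant. None of the 3 atrial genes tested passed in edgeR, DESeq2 or limma-voom, nor at an unadjusted p under 0.05. The part of these cells in the results below was not tested. The defining genes of foregut endoderm were near 0, with a sum of at most 6.57 CPM in WT and 1.52 CPM in the mutant, as were those of neural tissue and neural crest, with a sum of at most 1.97 CPM.

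*Bmp10* and *Bmp5* among the ligands and *Id2* among the response genes were lower in the mutant at an adjusted p under 0.05, and no member was higher. *Bmp10* fell by 0.57 on the log2 scale, *Id2* fell by 0.52 and *Bmp5* fell by 0.26. Thus 2 of 6 ligands and 1 of 4 response genes were called lower, beside 8.62% of all genes tested that were called in either direction, 3.5% lower and 5.11% higher. The count of 3 members lower and 0 higher was the same with DESeq2 and with limma-voom, which called 5.16% and 3.6% of all genes lower. With the replicate number as a block, 1 member was lower, and with 1 replicate left out 0 to 4 were. At an unadjusted p under 0.05 in edgeR, 5 members were lower and 1 was higher, beside 11.9% and 13.1% of all genes tested. All mutant values lay below all WT values for 4 of the 10 members, *Bmp10*, *Bmp5*, *Id1* and *Id2*, beside 9.45% of all genes tested, and 0 members lay wholly above WT, beside 9.51%. The median log2 fold change was -0.27 over the ligands and -0.37 over the response genes, and over all genes tested it was -0.0013. Without mutant replicate 1 these medians were -0.17, -0.19 and -0.0083. In bulk tissue, fewer cells of a type and less RNA per cell cannot be told apart.

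**Figure D1:**
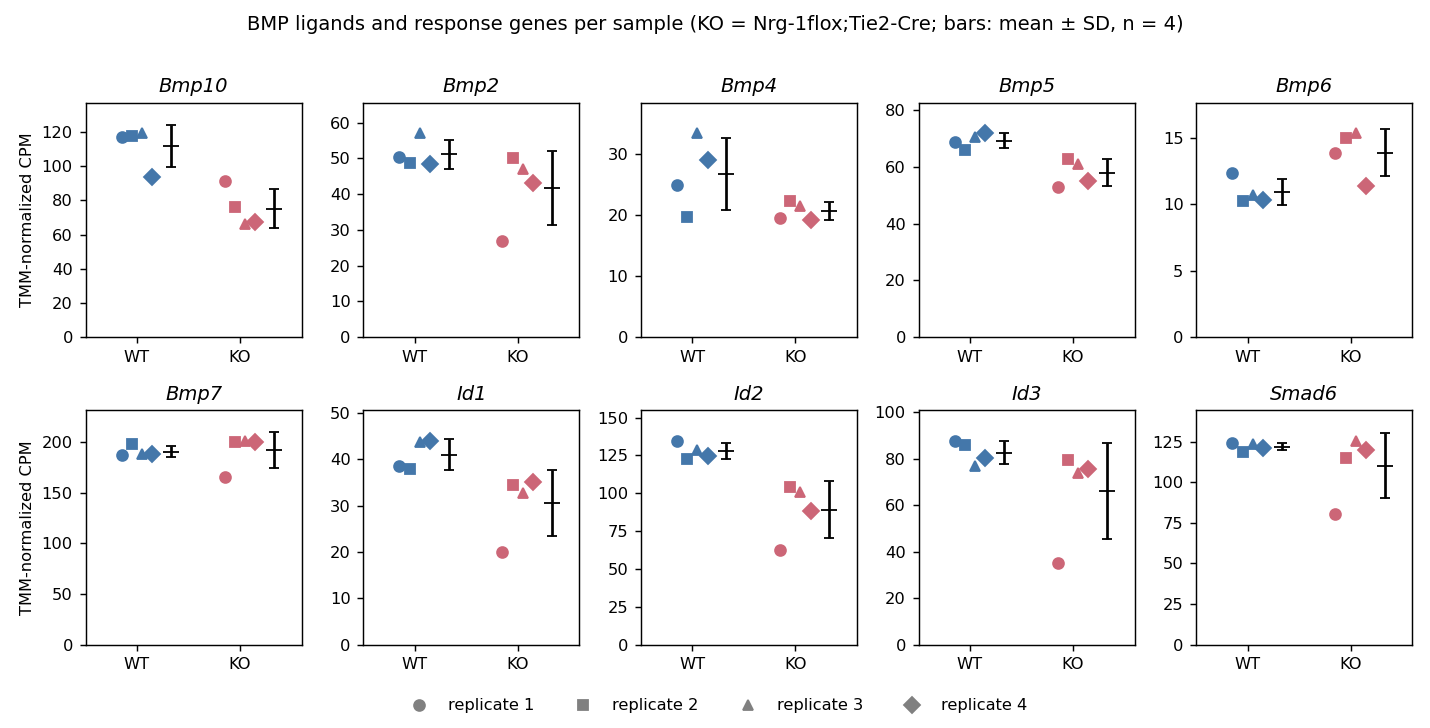
TMM-normalized CPM (vertical axes, each from 0) of the 10 genes in each WT and mutant (KO) sample, with a marker shape for each replicate number and bars for the mean ± SD of 4 samples. *Bmp10*, *Bmp5*, *Id1* and *Id2* show no overlap between genotypes, and mutant replicate 1 is the lowest mutant sample in all 4 response genes.

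*Bmp10*, the trabecular ligand, is on the plus strand of chromosome 6 (chr6:87428994-87437677, GRCm38). It measured 117, 118, 119 and 93.9 CPM in WT replicates 1 to 4 and 91.5, 76.2, 66.3 and 67.2 CPM in mutant replicates 1 to 4. The genotypes did not overlap, although the gap between WT replicate 4 and mutant replicate 1 was small, and these were the samples nearest to the other genotype. The mean was 112 ± 12.1 CPM (SD, n = 4) in WT and 75.3 ± 11.7 CPM (SD, n = 4) in the mutant, which gave a log2 fold change of -0.57 (standard error 0.12) with an adjusted p = 0.0159 by edgeR's quasi-likelihood test. Without mutant replicate 1 the log2 fold change was -0.68 (standard error 0.09, adjusted p = 0.00104 by the same test). Leaving out mutant replicate 4 or WT replicates 1, 2 or 3 in turn took the call away, with changes between -0.55 and -0.52 on the log2 scale and adjusted p between 0.0514 and 0.058. *Bmp10* counts ranged from 815 to 1646 per sample.

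*Bmp5*, a ligand of the same subgroup as *Bmp6* and *Bmp7*, is on the plus strand of chromosome 9 (chr9:75775364-75900310). Its levels were 69.0, 65.97, 70.6 and 71.9 CPM in WT replicates 1 to 4 and 53.1, 62.9, 61.1 and 54.9 CPM in mutant replicates 1 to 4. The genotypes were separate, and the change was smaller than for *Bmp10*, from 69.3 ± 2.54 to 58.0 ± 4.76 CPM (SD, n = 4 each). The log2 fold change was -0.26 (standard error 0.07, adjusted p = 0.0467 by edgeR's quasi-likelihood test) and -0.22 without mutant replicate 1 (adjusted p = 0.0307). The call was lost when mutant replicate 3 or 4 or any WT replicate was left out (log2 changes from -0.28 to -0.23, adjusted p from 0.0664 to 0.133). It was also lost with no filter on low counts (-0.26, adjusted p = 0.0711), with hemoglobin and mitochondrial genes removed (-0.25, adjusted p = 0.0552) and with scaling to cardiomyocyte markers (-0.22, adjusted p = 0.0929), all by edgeR's quasi-likelihood test. The replicate number as a block ended the call too (-0.26, adjusted p = 0.116 by the same test). A gene on the other strand, *Gm26903*, shares 1878 exon bases with *Bmp5*, and 2 to 6 counts per sample were assigned to it.

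Promoter windows of *Bmp10* and *Bmp5* are shown, since they are the ligands that passed the threshold. Each runs from 250 bases before to 50 bases after the RefSeq start of transcription (GRCm38.p6, plus strand, 5′ to 3′). Capitals mark the 5-letter motif CAGAC, which holds a SMAD box, or its complement GTCTG. The windows lie at chr6:87428744-87429043 for *Bmp10* and chr9:75775115-75775414 for *Bmp5*.
Bmp10: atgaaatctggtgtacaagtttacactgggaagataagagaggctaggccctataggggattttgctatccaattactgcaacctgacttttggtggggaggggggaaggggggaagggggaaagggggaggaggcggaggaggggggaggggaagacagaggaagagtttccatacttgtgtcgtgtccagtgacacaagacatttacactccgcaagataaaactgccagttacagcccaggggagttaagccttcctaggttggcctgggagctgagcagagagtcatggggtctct
Bmp5: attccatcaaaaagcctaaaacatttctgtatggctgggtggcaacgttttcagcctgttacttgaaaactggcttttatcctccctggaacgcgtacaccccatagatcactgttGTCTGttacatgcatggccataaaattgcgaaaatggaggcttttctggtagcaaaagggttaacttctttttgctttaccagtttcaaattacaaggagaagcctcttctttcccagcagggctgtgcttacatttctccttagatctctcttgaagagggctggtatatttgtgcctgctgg
The *Bmp5* window held 1 match, 134 bases before the start. The *Bmp10* window held neither this motif nor GGCGCC, a GC-rich element that BMP-activated SMADs bind. The SMAD box without its flanking base was not counted in any window. CAGAC on either strand was present in 49.6% and GGCGCC in 11.9% of 32851 mouse promoter windows of the same length. The matches are a description of the letters in the window and not evidence of binding.

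The other ligands did not pass the threshold. *Bmp7*, the most abundant ligand, is on the minus strand of chromosome 2 (chr2:172868012-172940321) and measured 187, 199, 188 and 188 CPM in WT and 165, 201, 201 and 201 CPM in the mutant, in replicate order. Mutant replicate 1 was the lowest of the 8 samples and the other mutant samples were the highest. The log2 fold change was 0.01 (standard error 0.07, adjusted p = 0.945) with all samples and 0.08 (standard error 0.04, adjusted p = 0.227) without that sample, by edgeR's quasi-likelihood test, and its sign turned under other settings.

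*Bmp2*, the atrioventricular canal ligand, is on the plus strand of chromosome 2 (chr2:133552159-133562885) and measured 50.4, 48.7, 57.0 and 48.4 CPM in WT and 26.8, 50.1, 47.0 and 43.1 CPM in the mutant. The genotypes overlapped, and the fitted log2 change, -0.29 (standard error 0.16, adjusted p = 0.305 by edgeR's quasi-likelihood test), became -0.13 (adjusted p = 0.255) without mutant replicate 1. *Bmp4*, the outflow tract ligand, is on the minus strand of chromosome 14 (chr14:46383520-46390669) and measured 24.9, 19.7, 33.4 and 29.0 CPM in WT and 19.5, 22.4, 21.6 and 19.3 CPM in the mutant. Here WT was the more scattered group, with an SD of 5.86 CPM against 1.53 CPM in the mutant (n = 4 each). The log2 fold change was -0.37 (standard error 0.15, adjusted p = 0.151), and it was -0.34 (adjusted p = 0.155) without mutant replicate 1. It depended on single WT samples, at -0.49 (adjusted p = 0.0462) without WT replicate 2, the lowest, and -0.25 (adjusted p = 0.34) without WT replicate 3, the highest. These values are from edgeR's quasi-likelihood test, and the fit without WT replicate 2 was the 1 of 16 alternatives in which *Bmp4* passed. Marker lists of the regions that transcribe these ligands moved in part. The atrioventricular canal list (5 genes) summed to 126 to 144 CPM in WT and 58.2 to 111 CPM in the mutant, with 2 genes lower, *Tbx3* and *Rspo3*, and 1 gene passing when mutant replicate 4 or any WT replicate was left out. *Cacna1g*, a calcium channel gene of that list, was at a log2 fold change of 0.59 (adjusted p = 0.106) with all samples and was higher without mutant replicate 1 (0.72, adjusted p = 0.0207 by edgeR's quasi-likelihood test). The outflow tract and second heart field list (6 genes) summed to 248 to 278 CPM and 163 to 238 CPM, with 3 genes lower, *Fgf10*, *Wnt11* and *Sema3c*, and *Fgf8* at 0.06 on the log2 scale. Without WT replicate 4, 1 gene of that list passed. The part of these regions in the *Bmp2* and *Bmp4* values was not tested.

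*Bmp6*, the endocardial ligand, is on the plus strand of chromosome 13 (chr13:38345107-38500302) and was the scarcest ligand, with 12.4, 10.2, 10.7 and 10.3 CPM in WT and 13.8, 15.0, 15.3 and 11.4 CPM in the mutant. Its fitted log2 fold change of 0.35 (standard error 0.12) was the highest of the ligands and did not pass the threshold (adjusted p = 0.105 by edgeR's quasi-likelihood test), also without mutant replicate 1 (0.35, adjusted p = 0.0822). Mutant replicate 4 fell inside the WT range. Its counts ranged from 130 to 213 per sample. The library kit named in the labels does not mark strand, and *Txndc5* on the other strand shares 224 exon bases with *Bmp6* and had 2553 to 4443 counts, so a part of the *Bmp6* counts could belong to it. The log2 fold change of *Txndc5* was -0.02 (adjusted p = 0.933 by the same test). The endocardial and endothelial marker list (8 genes) summed to 817 to 898 CPM in WT and 703 to 774 CPM in the mutant, with 1 gene, *Tek*, lower, and also *Kdr* (log2 fold change -0.51, adjusted p = 0.00155 by edgeR) without mutant replicate 1. The *Tek* call was lost when mutant replicate 3 or 4 or any WT replicate was left out.

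**Figure D2:**
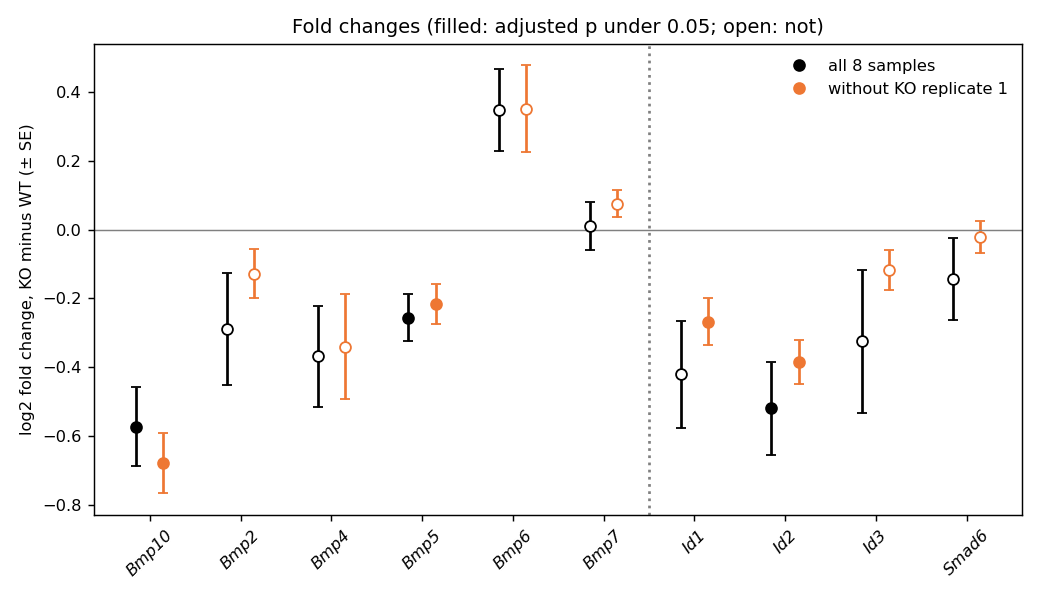
Log2 fold change of mutant (KO) over WT ± standard error from edgeR for each gene, with all 8 samples (black) and without mutant replicate 1 (orange), ligands left and response genes right of the dotted line. Filled points have an adjusted p under 0.05, and without that sample *Bmp10* moved from -0.57 to -0.68 while *Id3* moved from -0.32 to -0.12.

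To compare levels between genes, CPM were divided by the exon length of each gene in kilobases. In WT the order of the ligands was *Bmp7* (47.4 ± 1.33 CPM per kilobase, SD, n = 4), *Bmp10* (24.9 ± 2.70), *Bmp5* (17.2 ± 0.631), *Bmp2* (14.4 ± 1.13), *Bmp4* (11.9 ± 2.61) and *Bmp6* (2.80 ± 0.255). Neighbours in this order were separate over the 4 samples except *Bmp2* and *Bmp4*. In the mutant the order of the means was the same, with *Bmp10* at 16.8 ± 2.60 and *Bmp5* at 14.4 ± 1.18 CPM per kilobase (SD, n = 4), and the ranges of *Bmp10* and *Bmp5*, of *Bmp5* and *Bmp2* and of *Bmp2* and *Bmp4* overlapped. Within a sample, *Bmp10* stayed above *Bmp5* in mutant replicates 1, 2 and 4. In mutant replicate 3 it was below, at 14.8 against 15.2 CPM per kilobase.

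The summed level of the ligands was 119 ± 4.18 CPM per kilobase in WT and 103 ± 6.89 CPM per kilobase in the mutant (SD, n = 4 each), and the genotypes did not overlap. *Bmp10* made up 22.0%, 22.4%, 21.3% and 18.2% of this sum in WT replicates 1 to 4. In the mutant it made up 15.4%, 13.8% and 14.7% in replicates 2, 3 and 4 and 21.6% in replicate 1. Mutant replicate 1 therefore lay inside the WT range of this share and the other mutant samples below it. The share of *Bmp7* ranged from 37.6% to 42.2% in WT and from 43.6% to 48.9% in the mutant, and that of *Bmp6* was 2.36% ± 0.222 and 3.44% ± 0.407 (SD, n = 4 each), both higher in all 4 mutant samples than in any WT sample. Shares of a sum move together, so these are not separate results. These values are descriptions with no test.

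**Figure D3:**
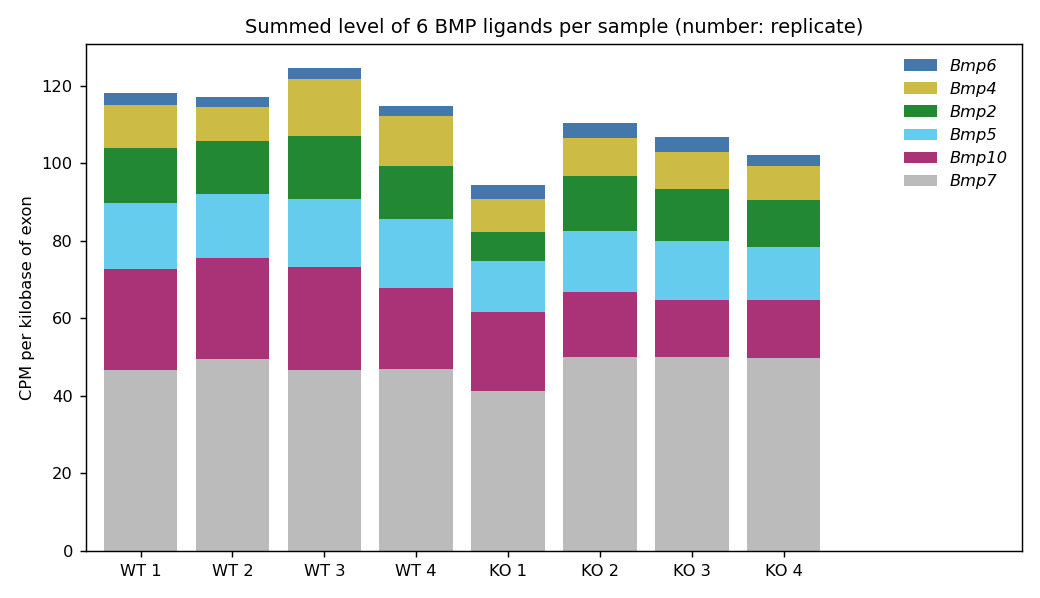
Summed CPM per kilobase of exon of the 6 ligands in each sample (bars, from 0), split by ligand. The *Bmp10* segment makes up 13.8% to 15.4% of the bar in mutant (KO) replicates 2 to 4 and 18.2% to 22.4% in WT, and the *Bmp7* segment is 46.6 to 49.4 CPM per kilobase in WT, 49.9 to 50.1 in mutant replicates 2 to 4 and 41.2 in replicate 1.

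The log2 ratio of *Bmp10* to each other ligand within a sample leaves out any scaling between libraries. The ratio to *Bmp6* was 3.34 ± 0.17 in WT and 2.42 ± 0.26 in the mutant (SD, n = 4 each), which makes a difference of -0.92 with no overlap. The ratio to *Bmp7* was -0.77 ± 0.16 in WT and -1.36 ± 0.35 in the mutant (SD, n = 4 each), a difference of -0.58, with mutant replicate 1 at -0.85 inside the WT range of -1.004 to -0.66. The other ratios overlapped too. The differences were -0.32 for *Bmp5*, -0.25 for *Bmp2* and -0.23 for *Bmp4*, and without mutant replicate 1 they were -0.46, -0.55 and -0.36. Other single samples made them smaller, to -0.12 for *Bmp2* without mutant replicate 3 and to -0.07 for *Bmp4* without WT replicate 2. In mutant replicate 1 *Bmp2* was so low that the log2 ratio of *Bmp10* to it, 1.77, was the highest of all 8 samples. *Bmp10* was thus lower relative to *Bmp6* in all mutant samples, and relative to *Bmp7*, *Bmp5* and *Bmp2* in mutant replicates 2 to 4. *Bmp6* was the scarcest ligand, its counts could in part belong to *Txndc5*, and its own change did not pass the threshold. No test was made of these ratios.

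**Figure D4:**
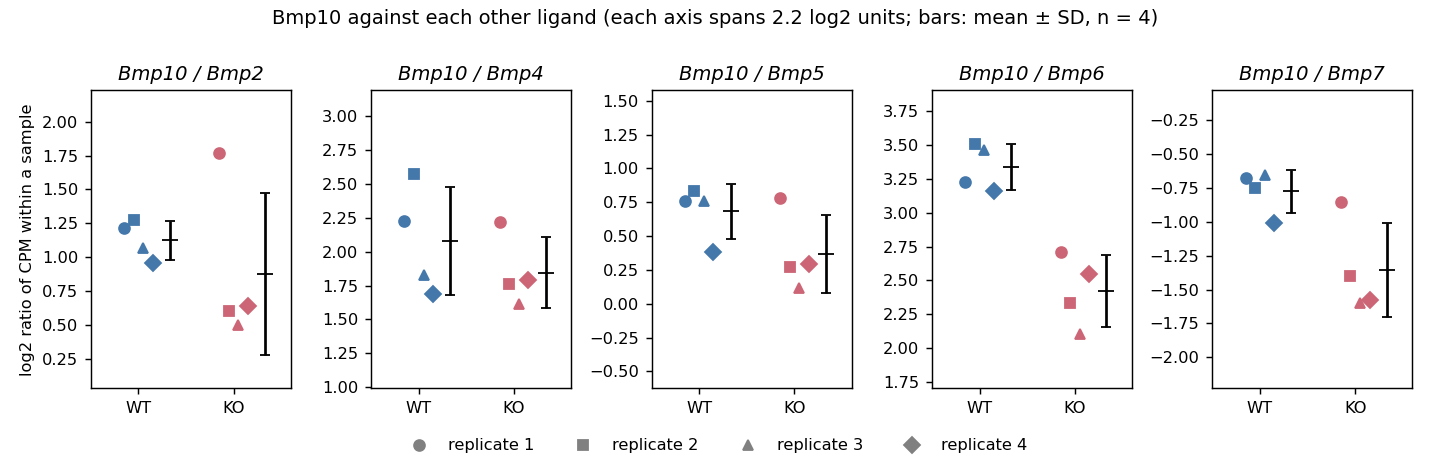
Log2 ratio of *Bmp10* CPM to that of each other ligand within a sample, in WT and mutant (KO), with a marker shape for each replicate number and bars for the mean ± SD of 4 samples; all axes span the same number of log2 units. The ratio to *Bmp6* separates the genotypes, and mutant replicate 1 lies apart from the other mutant samples in the ratio to *Bmp2*.

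Among the response genes, *Id2* is on the minus strand of chromosome 12 (chr12:25093799-25097140). It measured 135, 123, 129 and 125 CPM in WT replicates 1 to 4 and 62.7, 104, 101 and 88.0 CPM in mutant replicates 1 to 4. All mutant samples were below all WT samples, and replicate 1 was the lowest. The mean went from 128 ± 5.16 to 89.0 ± 18.9 CPM (SD, n = 4 each), and the fitted log2 change was -0.52 (standard error 0.14, adjusted p = 0.0435 by edgeR's quasi-likelihood test). Without mutant replicate 1 the change was smaller and its error smaller still, at -0.39 (standard error 0.06, adjusted p = 0.00341). The call was lost when mutant replicate 3 or 4 or any WT replicate was left out (adjusted p from 0.0541 to 0.126), with log2 changes from -0.59 to -0.50 in those fits. It was also lost with the replicate number as a block (-0.54, adjusted p = 0.08 by the same test).

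*Id1* is on the plus strand of chromosome 2 (chr2:152736251-152737410). It measured 38.6, 37.8, 43.7 and 43.9 CPM in WT and 20.01, 34.5, 32.7 and 35.0 CPM in the mutant, in replicate order, again with no overlap. The log2 fold change of -0.42 (standard error 0.16) did not pass (adjusted p = 0.127 by edgeR's quasi-likelihood test). Mutant replicate 1 lay far below the other mutant samples, and without it the log2 fold change was -0.27 (standard error 0.07, adjusted p = 0.025). With 3 mutant samples, 4 members were called lower, *Bmp10*, *Bmp5*, *Id1* and *Id2*, beside 7.97% of the genes then tested, and 0 were higher (1 at an unadjusted p under 0.05). In that fit 1352 of 14660 genes were called higher.

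*Id3* is on the plus strand of chromosome 4 (chr4:136143497-136145755) and measured 87.6, 86.0, 76.8 and 80.1 CPM in WT and 35.1, 79.4, 73.7 and 75.4 CPM in the mutant. Only replicate 1 was far below WT, and the log2 fold change went from -0.32 (standard error 0.21, adjusted p = 0.371) to -0.12 (standard error 0.06, adjusted p = 0.192) without it, by edgeR's quasi-likelihood test. *Smad6*, the inhibitory SMAD, is on the minus strand of chromosome 9 (chr9:63953076-64022059) and measured 124, 119, 123 and 121 CPM in WT and 80.7, 115, 125 and 120 CPM in the mutant. Outside replicate 1 the mutant values lay around those of WT, and the log2 fold change was -0.14 (standard error 0.12, adjusted p = 0.493) with that sample and -0.02 (standard error 0.05, adjusted p = 0.8) without it. All 4 fitted changes were below 0, with 1 gene past the threshold. Relative to the WT mean, mutant replicates 2 to 4 ranged from 68.8% to 81.7% for *Id2*, from 79.8% to 85.4% for *Id1*, from 89.2% to 96.0% for *Id3* and from 94.3% to 103% for *Smad6*, whereas replicate 1 was at 49.0%, 48.8%, 42.5% and 66.2%. For *Bmp10* the same sample was the highest of the mutant group, at 81.7%, with 59.2% to 68.0% in the others. No test was made of the difference between members.

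The levels of the response genes per length lay close together in WT, at 52.4 ± 2.12 CPM per kilobase for *Id2*, 46.1 ± 2.83 for *Id3*, 38.0 ± 0.725 for *Smad6* and 35.4 ± 2.82 for *Id1* (SD, n = 4). *Smad6* and *Id1* overlapped in this order and the other neighbours did not. In the mutant all neighbours overlapped, and the means of *Id3* (36.8 ± 11.5) and *Id2* (36.5 ± 7.77) were side by side. The sum of the Id genes was 134 ± 2.61 CPM per kilobase in WT and 99.7 ± 25.0 in the mutant (SD, n = 4 each). It was 62.5 in mutant replicate 1 and 108 to 117 in the others, all below the WT range of 131 to 137.

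The windows of *Id2*, the response gene called with all samples, and of *Id3*, whose mutant replicates 2 to 4 stayed near WT, are shown side by side. They lie at chr12:25096043-25096342 (minus strand) and chr4:136143572-136143871 (plus strand) of GRCm38.p6, around RefSeq starts that fall inside the gene bounds given above, and are printed 5′ to 3′ on the strand of the gene. Capitals mark GGCGCC in *Id2* and CAGAC or GTCTG in *Id3*.
Id2: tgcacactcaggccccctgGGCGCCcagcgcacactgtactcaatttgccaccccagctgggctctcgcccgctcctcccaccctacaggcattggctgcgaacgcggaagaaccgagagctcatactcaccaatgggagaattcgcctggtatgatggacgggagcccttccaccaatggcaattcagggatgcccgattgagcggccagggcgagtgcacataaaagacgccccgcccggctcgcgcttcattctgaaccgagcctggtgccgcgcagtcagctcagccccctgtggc
Id3: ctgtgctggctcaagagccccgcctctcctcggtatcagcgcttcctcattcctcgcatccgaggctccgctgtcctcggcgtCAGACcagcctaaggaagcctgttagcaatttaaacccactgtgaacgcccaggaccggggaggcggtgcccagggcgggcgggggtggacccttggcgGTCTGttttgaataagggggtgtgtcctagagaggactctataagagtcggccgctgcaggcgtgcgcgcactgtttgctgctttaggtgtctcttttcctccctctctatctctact
*Id2* held 1 GGCGCC, 231 bases before the start, and no CAGAC on either strand. *Id3* held 2 matches of CAGAC or its complement, 167 and 68 bases before the start, and no GGCGCC. Windows were found for 7 of the 10 members, and not for *Bmp2*, *Bmp7* and *Id1*. Of the others, *Bmp6* held 1 CAGAC and *Bmp4* and *Smad6* held neither motif.

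Other genes of the pathway were read from fixed lists. None of the 10 receptor and coreceptor genes passed in edgeR (3 at an unadjusted p under 0.05), DESeq2 or limma-voom, with a median log2 fold change of -0.05. With upper-quartile scaling 1 of them, *Acvr1*, passed (-0.26, adjusted p = 0.0477 by edgeR). The most abundant type I receptor gene was *Bmpr1a*, at 140 ± 6.78 CPM in WT and 136 ± 28.8 CPM in the mutant (SD, n = 4 each; adjusted p = 0.875 by edgeR), and the most abundant type II receptor gene was *Bmpr2*, at 91.05 ± 6.62 and 74.8 ± 11.4 CPM (SD, n = 4 each; adjusted p = 0.13 by edgeR). Without mutant replicate 1, *Bmpr2* (log2 fold change -0.36, adjusted p = 0.0225), *Acvr1* (-0.26, adjusted p = 0.0324) and *Acvr2a* (-0.30, adjusted p = 0.0279) were lower by edgeR's quasi-likelihood test. None of the SMAD genes *Smad1*, *Smad5*, *Smad9* and *Smad4* passed in edgeR (1 at an unadjusted p under 0.05), DESeq2 or limma-voom. Of 8 further BMP-class ligands, *Gdf6* was the one with enough counts to test, and it did not pass (log2 fold change 0.66, standard error 0.36, adjusted p = 0.297 by edgeR).

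Of 16 antagonists and modulators, 10 were tested, of which 1 was higher and 1 lower. *Bambi*, a decoy receptor without a kinase domain that is itself a BMP target, measured 102, 86.8, 95.7 and 103 CPM in WT and 73.4, 78.0, 70.8 and 67.8 CPM in the mutant. It separated the genotypes, and the fitted log2 change was -0.42 (standard error 0.07, adjusted p = 0.00789 by edgeR's quasi-likelihood test), and it passed in all 16 alternatives. *Sost*, a secreted inhibitor better known in WNT signaling, measured 8.33, 7.66, 11.7 and 7.03 CPM in WT and 17.5, 15.2, 13.6 and 13.2 CPM in the mutant. It was higher by 0.78 on the log2 scale (standard error 0.17, adjusted p = 0.0203 by the same test) and passed in 13 of 16 alternatives. The call was lost without WT replicate 1, 2 or 4 (adjusted p from 0.0636 to 0.0702) and held without mutant replicate 1 (0.70). *Nog*, the gene for the ligand trap noggin, was at 12.3 ± 1.34 CPM in WT and 14.5 ± 0.838 CPM in the mutant (SD, n = 4 each; adjusted p = 0.194 by edgeR).

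Of 10 other BMP-responsive genes, 2 were lower and 0 higher (0 higher also at an unadjusted p under 0.05 and with DESeq2 and limma-voom). DESeq2 called 4 of them lower and limma-voom 3. *Tbx20*, a cardiac T-box factor, fell by 0.31 on the log2 scale (standard error 0.06, adjusted p = 0.0165) and *Hand1*, a basic helix-loop-helix factor of the outer curvature, fell by 0.62 (standard error 0.13, adjusted p = 0.0169 by edgeR's quasi-likelihood test). Each passed in 13 of 16 alternatives, and without mutant replicate 1 they were at -0.26 and -0.52. *Tbx20* was lost without WT replicate 1, 3 or 4 (adjusted p from 0.0546 to 0.0593) and *Hand1* without WT replicate 1, 2 or 4 (adjusted p from 0.052 to 0.0576). The homeobox genes *Msx1* and *Msx2*, which BMP induces in the cushions, were below WT in every mutant sample but did not pass with all samples (log2 fold changes -0.63 and -0.68, adjusted p = 0.0562 and 0.0639 by edgeR). Without mutant replicate 1 they passed, at -0.47 (adjusted p = 0.0144) and -0.50 (adjusted p = 0.023 by the same test), and *Nkx2-5*, a cardiac homeobox gene, was higher, at 0.22 (adjusted p = 0.0148). The inhibitory SMAD gene *Smad7* measured 43.1 ± 2.68 CPM in WT and 44.0 ± 8.03 CPM in the mutant (SD, n = 4 each).

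**Figure D5:**
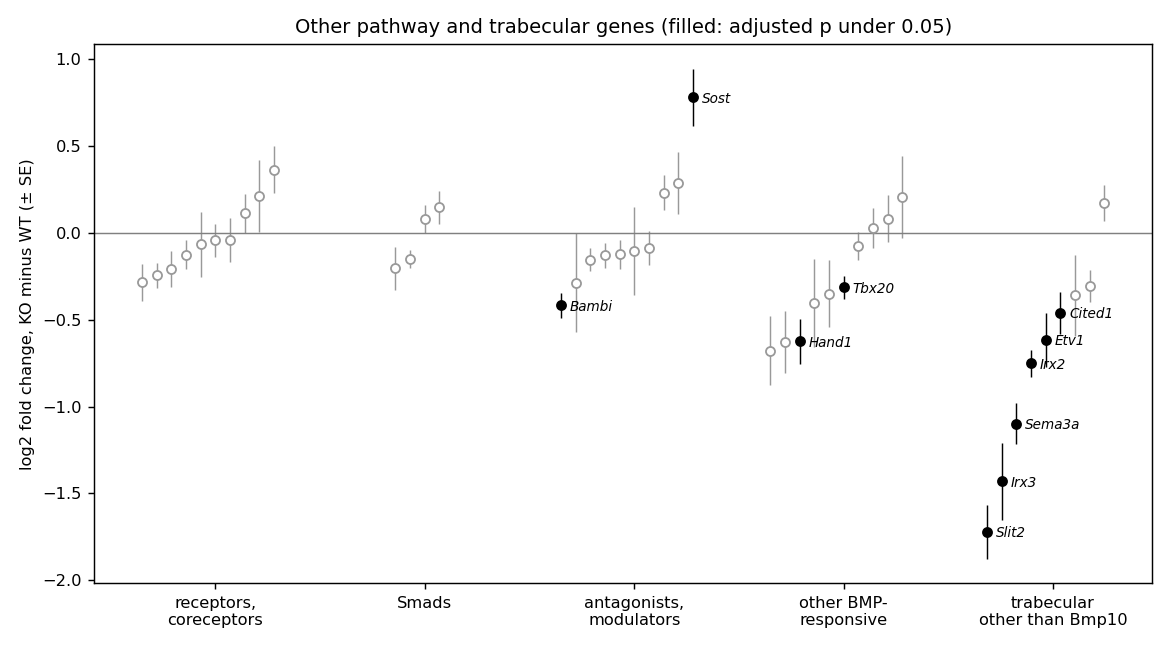
Log2 fold change of mutant (KO) over WT ± standard error from edgeR for the tested genes of each fixed list, sorted within a list. Filled and named genes have an adjusted p under 0.05. No receptor or SMAD gene is filled, and 6 of the 9 trabecular genes are filled and lower.

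Beside *Bmp10*, 6 of 9 other trabecular genes were lower and 0 higher in the mutant (0 higher also at an unadjusted p under 0.05 and with DESeq2 and limma-voom), with a median log2 fold change of -0.62. Of all genes tested, 3.5% were called lower. The list was chosen with earlier results of these data known, so its count is not independent evidence. The 6 were *Slit2* (-1.72), *Irx3* (-1.43), *Sema3a* (-1.10), *Irx2* (-0.75), *Etv1* (-0.62) and *Cited1* (-0.46). All 6 passed without mutant replicate 1, whereas 4 genes of the list passed when any other replicate was left out and 5 with scaling to cardiomyocyte markers. *Nppa*, the natriuretic peptide gene of the chamber myocardium, did not pass, at 0.17 on the log2 scale (adjusted p = 0.329 by edgeR). The log2 fold change of *Bmp10* lay inside the range of this list. In the compact wall list, 1 of 4 genes, *Tbx20*, was lower. The other genes of that list had fitted log2 changes above 0 and did not pass, among them *Hey2*, a transcriptional repressor gene, at 0.28 (adjusted p = 0.126 by edgeR), with all mutant samples above all WT samples.

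The genes whose pattern over the 8 samples was most like that of *Bmp10* were sought among all genes tested, by the root-mean-square difference in log2 CPM after centring each gene on its own mean. The smallest differences were found for *Vcan* (0.0967 log2 units), *Epha4* (0.107), *Itgav* (0.113), *Parm1* (0.122) and *Arntl2* (0.122), where the value of a flat gene would be 0.333. *Vcan* encodes the cardiac jelly proteoglycan versican, *Epha4* an ephrin receptor and *Itgav* the integrin subunit alpha V. *Vcan* went from a mean of 1132 CPM in WT to 761 CPM in the mutant. *Arntl2* was the exception in abundance, at 1.57 and 0.974 CPM. Of the members, *Bmp5* was nearest (0.268, rank 1320) and *Id2* (0.334) was no nearer than a flat gene. The patterns share their libraries and scaling, and the likeness is a description.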

How the data were processed

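RNA-seq counts of 8 ventricle samples (4 WT, 4 Nrg-1flox;Tie2-Cre) were analysed. The authors deposited RSEM expected counts per gene, without scaling for library size or length. Per the labels, cutadapt and RSEM 1.3.1 were used with GRCm38. The aligner and the strand setting are not given in the sources used here. Expected counts were rounded to whole numbers, and 53274 of 53465 gene IDs received a symbol. The fit used edgeR 4.0.16 in R 4.3.3 (TMM, filterByExpr by genotype, quasi-likelihood test), and p-values of 14451 genes were adjusted by Benjamini-Hochberg, with 0.05 as the threshold. A standard error is the absolute log2 fold change over the root of the F statistic. CPM are TMM-normalized. Log2 CPM used a prior count of 2. Exon lengths are unions of GENCODE M21 exons (GRCm38), and promoter sequences are from RefSeq (GRCm38.p6). The script was tested on simulated data. No pair of replicates was a repeat of one library (lowest chi-square per degree of freedom 3.74). Counting error is included in the fit.

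The members and gene lists were chosen with earlier results of these data known, so their counts are not independent evidence. Named genes are the 10 members, genes of the pathway lists with an adjusted p under 0.05, the most abundant receptor gene of each type, *Nrg1*, the 5 genes most like *Bmp10*, and examples from marker lists; others were named after their values were seen. Other settings tried were upper-quartile scaling, 2 other filters, removal of hemoglobin and mitochondrial genes, scaling to cardiomyocyte markers, the replicate number as a block, each replicate left out, and the tools limma-voom (limma 3.58.1) and DESeq2 (1.42.0). The prior count was also set to 0.5 for the log2 ratios.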

Additional observations from a re-analysis of the deposited data

Results flagged for a closer look

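In 46 groups of 4 values tested, 7 had 1 sample far from the other 3, where chance gives about 1 in 20 groups, or 2.3. The first value in each bracket is that sample's distance to its closest neighbour divided by the spread from lowest to highest. In 4 of the 7 the sample was mutant replicate 1, and the cause was not tested. It was the lowest mutant sample for *Bmp7* (0.978; 165 CPM, others 201 CPM), *Id3* (0.873; 35.1 CPM, others 73.7 to 79.4 CPM) and *Id1* (0.847; 20.01 CPM, others 32.7 to 35.0 CPM). Its log2 ratio of *Bmp10* to *Bmp2* was the highest (0.888; 1.77, others 0.50 to 0.64). In WT, replicate 4 was lowest for *Bmp10* (0.906; 93.9 CPM, others 117 to 119 CPM). WT replicate 2 was highest for *Bmp7* (0.89; 199 CPM, others 187 to 188 CPM), and WT replicate 3 for *Bmpr1a* (0.834; 150 CPM, others 135 to 137 CPM).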

How the results depend on the processing

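With all 8 samples, 1245 genes were called, 739 higher and 506 lower. *Bmp10* kept its call in the 8 alternatives that leave no replicate out (log2 fold change from -0.59 to -0.53) and in 4 of the 8 that do. *Id2* kept it in 7 and 2 of these, and *Bmp5* in 4 and 2. With the replicate block 619 genes were called, 399 higher and 220 lower, and 1 member (*Bmp10*) was lower. The atrioventricular canal and outflow tract lists then had 1 called gene each, against 2 and 3, the trabecular list had 4, against 6, and the calls of *Bmp5* (-0.26, adjusted p = 0.116), *Id2* (-0.54, adjusted p = 0.08) and *Tek* were lost, with folds of *Bmp5* and *Id2* as large as without the block. The deviations of same-numbered samples from their group means had a mean correlation of -0.0165, against 0.00562 for samples of other numbers. The labels name no shared litter, day or batch, and such correlations cannot exclude one. Leaving out 1 replicate gave 509 to 2521 genes, 335 to 1352 higher and 174 to 1169 lower, and 0 to 4 members lower. The lowest came without WT replicate 1 and the highest without mutant replicate 1. Fits without mutant replicate 4, WT replicate 1 or WT replicate 3 called 0 members by edgeR's quasi-likelihood test, with 4, 5 and 3 lower and 1 higher in each at an unadjusted p under 0.05, where 10.1%, 8.97% and 9.71% of all genes were lower. With all 8 samples, 13.1% of genes were higher at that unadjusted threshold. Scaling to cardiomyocyte markers left 330 genes lower and made 69.4% of calls higher, against 59.4%. *Bmp7* changed sign with upper-quartile scaling (-0.0055) and without mutant replicate 2, 3 or 4 (all leave-outs -0.0125 to 0.0756), and *Bmpr1a* with the cardiomyocyte scaling (0.00702) and without mutant replicate 3 or 4 (all leave-outs -0.195 to 0.0358), neither passing. The cause was not tested. The differences in the log2 ratio of *Bmp10* to each ligand, which were recomputed only with a prior count of 0.5 and with each replicate left out, stayed below 0. *Bmp6* had the fewest counts of the members, 130 to 213 per sample.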
